A study of Mus musculus with 30 samples.

Results

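Retinal ganglion cells (RGCs), which send their axons through the optic nerve to the brain, were compared 1 day after crush of that nerve with RGCs of mice whose nerve was not crushed. The comparison rests on 6 RNA-seq libraries, 3 labelled Crush (Day 1) and 3 labelled No Crush (Day0), out of 30 samples in the series. The question it answers is which transcripts differ in RGCs at the earliest day sampled after axon injury. No transgene or other allele is named in the labels, and crush is the only treatment they give. The column names of the authors' tables of comparisons mark these groups as NT or nonTarget, which the labels do not explain. The strain is given as C57BL/6 for the day 1 libraries and for no crush replicate 1, while no crush replicate 2 is labelled C57BL/7 and replicate 3 C57BL/8, numbers that run on with the replicate and may be entry errors for C57BL/6, which the sources used here do not settle. Age and the antibody or marker used for the sort are not stated in the sources used here. Nothing in the labels ties a replicate to an animal of its own, so the p-values rest on the scatter among these libraries, and that scatter may be only technical.

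Each library was made from 5000 to 10000 sorted cells and held 19024286 to 27561352 counts in 13752 genes, of which 13737 had enough counts to test. Levels are given as CPM, counts scaled to library size, which is not scaled to gene length. In such bulk libraries, fewer cells of a type and less RNA per cell cannot be told apart.

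RGCs are projection neurons of the central nervous system, and their axons do not regrow after injury to the optic nerve. In many neurons axon damage activates the kinase DLK, which signals through JNK to the transcription factor c-Jun, and it also engages the integrated stress response, in which phosphorylation of eIF2α favours translation of the transcription factor ATF4. Both arms are known to precede the later death of most RGCs, and the same injury switches on part of a growth programme that peripheral neurons use to regenerate.

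On day 1 the RGC transcriptome held similar numbers of higher and lower genes, 815 and 748, and the rises were larger than the falls. The rises were led by stress and injury genes (Creb5, Mmp12, Hrk, Dusp16, Arid5a, Atf3), and genes of the integrated stress response rose as a group. The falls were spread over RGC transcription factors and markers, tubulins, ion channels and transmitter receptors, and few of them reached 2-fold. Interferon-induced and MHC class I genes were high in all 3 day 1 libraries, but also in 1 of the 3 no crush libraries.

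Of the genes tested 1563 were called (11.4%), of which 815 were higher on day 1 (5.93% of all genes tested) and 748 lower (5.45%), by edgeR's quasi-likelihood test at an adjusted p under 0.05, and 3536 had an unadjusted p under 0.05. At least 2-fold changes numbered 341 among the higher genes (2.48% of all genes tested) and 25 among the lower (0.182%). The median size of the change was 0.842 on the log2 scale among higher genes and 0.431 among lower genes. Genes whose 3 day 1 libraries lay all above the 3 no crush libraries numbered 1909 (13.9%), and those with all below 1996 (14.5%). Genes that were both called and without such overlap numbered 779 higher (5.67%) and 739 lower (5.38%). With only the libraries of days 0 and 1 in the fit, 815 genes were called (6.1%), 407 higher (3.05%) and 408 lower (3.05%). The share of calls that were higher was 52.1% with all libraries. It ranged from 43.6% with DESeq2's Wald test to 62.5% with only days 0 and 1 fitted and no crush replicate 3 left out. Which direction held more calls thus depended on the setting.

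**Figure D1:**
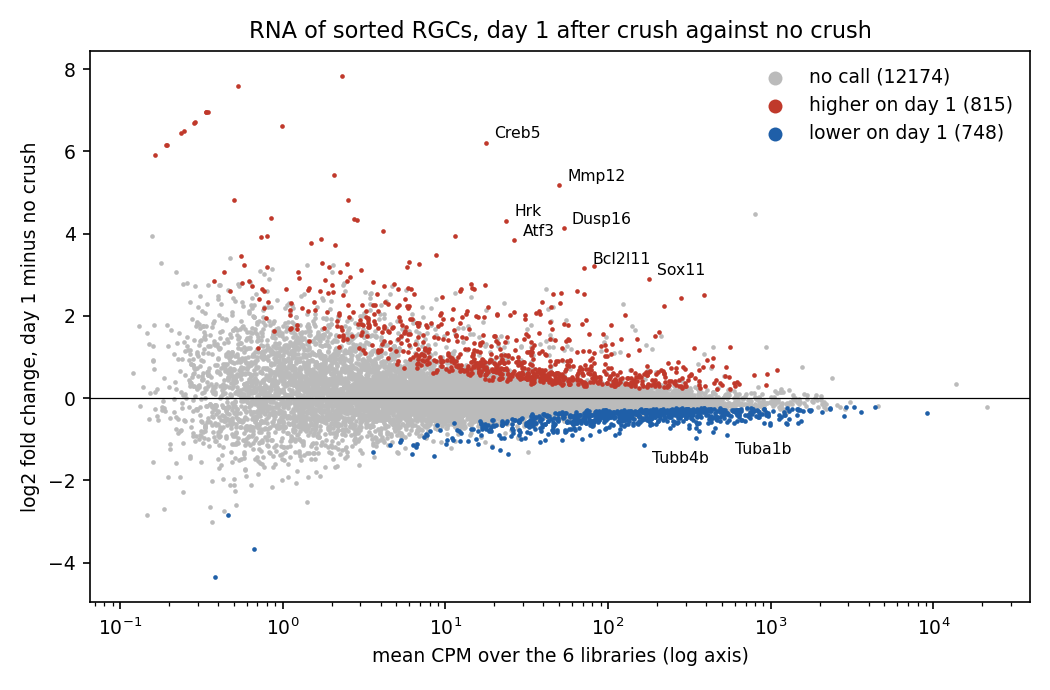
Log2 fold change of day 1 minus no crush (vertical axis) against the mean CPM over the 6 libraries (horizontal log axis) for each gene tested. The 815 higher genes (red) reach far larger changes than the 748 lower genes (blue), most of which lie within 1 log2 unit of 0.

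No crush replicate 3 was closer to the day 1 libraries than the other no crush libraries were. Its log2 CPM values correlated with those of the day 1 libraries at a mean Pearson r of 0.964, and with those of its own group at 0.961. For no crush replicates 1 and 2, the mean r was 0.961 and 0.963 with their own group, and 0.952 and 0.949 with the day 1 libraries. Leaving replicate 3 out gave 855 higher genes (6.22%) and 681 lower (4.96%), and 617 of the higher (4.49%) and 576 of the lower genes (4.19%) were called both with and without it. Of those, 599 (4.36%) and 572 (4.16%) also had no overlap between the groups. Together the calls without it were 1536 (11.2%). Each gene below was checked that way, and unless stated it kept its call without replicate 3. A pair of other libraries stood apart for single gene groups. Day 1 replicate 1 held the most RNA of microglial marker genes, and no crush replicate 1 held more RNA of several stress genes than its group.

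The sort was checked against RGC markers. Rbpms, an RNA-binding protein gene used to identify RGCs, stood at 583, 549 and 605 CPM without crush and 379, 431 and 368 CPM on day 1. The vesicular glutamate transporter gene Slc17a6 stood at 1412, 1208 and 1254 CPM without crush and 1242, 1242 and 1051 CPM on day 1, and the neurofilament gene Nefl at 2952, 3267 and 3504 CPM without crush and 2542, 2743 and 1950.1 CPM on day 1. All 3 were detected in every library, and Nefl was lower on day 1 (log2 -0.43 ± 0.10, SE; adjusted p = 0.0129), as was Rbpms. Of other retinal cells, the 12 rod markers summed to 1229, 418 and 283 without crush and 944, 1047 and 1250.4 on day 1 CPM, so that rod RNA was present in every library and varied within the no crush group.

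The 12 largest rises among well-counted genes were those of Creb5, Mmp12, Hrk, Dusp16, Arid5a, Atf3, Tnfrsf12a, Gpnmb, Ticam1, Bcl2l11, Sox11 and Phgdh. These were chosen by a rule that asked for no overlap between the groups. Creb5 encodes a transcription factor of the CREB/ATF family. It was close to absent without crush, at 0.216, 0 and 1.09 CPM, and stood at 29.2, 37.8 and 37.8 CPM on day 1. The 2 groups lay far apart, with a 74.2-fold difference (log2 6.21 ± 0.46, SE; adjusted p = 2.07e-07), and the size depended on the few no crush counts: it was 338-fold without no crush replicate 3 and 48.3-fold without replicate 2.

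Mmp12, a gene for a secreted elastase that digests extracellular matrix and is best known from macrophages, stood at 0.812, 0.777 and 5.99 CPM without crush and 106, 94.1 and 91.4 CPM on day 1. No crush replicate 3 was the highest of its group, and the 36.2-fold rise (log2 5.18 ± 0.41, SE; adjusted p = 4.96e-07) became 120-fold without it. Arid5a, whose product binds and stabilises mRNAs, went from 1.62, 0.734 and 1.87 CPM to 20.1, 22 and 22.6 CPM, a 15.3-fold rise (log2 3.93 ± 0.21, SE; adjusted p = 2.33e-09). Atf3, a stress-induced transcription factor and marker of injured neurons, went from 4.44, 2.24 and 3.77 CPM to 54.4, 44 and 49.8 CPM. Its day 1 libraries were within a narrow range far above the no crush libraries, a 14.3-fold rise (log2 3.84 ± 0.16, SE; adjusted p = 1.13e-10).

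Sox11, a transcription factor gene of developing neurons, stood at 38.5, 41.9 and 45.5 CPM without crush and 301, 345 and 298 CPM on day 1. Replicates of each group lay close together, and the rise was 7.49-fold (log2 2.90 ± 0.09, SE; adjusted p = 1.92e-12). Tnfrsf12a, which encodes the receptor Fn14 for the cytokine TWEAK, stood at 0.649, 0.648 and 2.84 CPM without crush and 14.9, 10.7 and 22.5 CPM on day 1. The rise was 11.1-fold (log2 3.47 ± 0.37, SE; adjusted p = 1.47e-05) and 24.1-fold without no crush replicate 3. Ticam1, which encodes the adaptor TRIF of Toll-like receptor 3, was at 1.35, 0.345 and 1.75 CPM without crush and 10.3, 8.62 and 12.6 CPM on day 1, a 9.08-fold rise (log2 3.18 ± 0.39, SE; adjusted p = 5.54e-05).

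For 2 more of these genes, beside Creb5, Mmp12 and Tnfrsf12a, the size of the rise depended on single libraries. Gpnmb, a glycoprotein gene of phagocytes and other cells, stood at 23.4, 16.3 and 8.63 CPM without crush and 365, 33.2 and 45.4 CPM on day 1. Its level of 365 CPM was in day 1 replicate 1, and without that library the rise fell from 9.23-fold to 2.41-fold (adjusted p = 0.00748). Phgdh, which encodes the first enzyme of serine synthesis, stood at 3.73, 0.13 and 1.09 CPM without crush and 11.1, 9.77 and 9.39 CPM on day 1. Its rise of 6.43-fold (log2 2.68 ± 0.49, SE; adjusted p = 0.00199) became 15.6-fold without no crush replicate 1 and 4.28-fold without replicate 2. Phgdh had an adjusted p of 0.0627 when only the libraries of days 0 and 1 were fitted.

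Levels in the later libraries are given beside these, with means over 2, 3 and 2 libraries on days 2, 3 and 4, and no test was made between days. Some genes were at their day 1 level or below by day 4. Creb5 had mean levels of 48.6, 28.8 and 22.2 CPM on days 2, 3 and 4, and Dusp16 of 104, 71 and 55.7 CPM. For others day 1 was an early point of a longer rise in the means. Atf3 had mean levels of 219.9, 487 and 556 CPM, Mmp12 of 412, 647 and 658 CPM and Sox11 of 834, 909 and 1339 CPM.

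**Figure D2:**
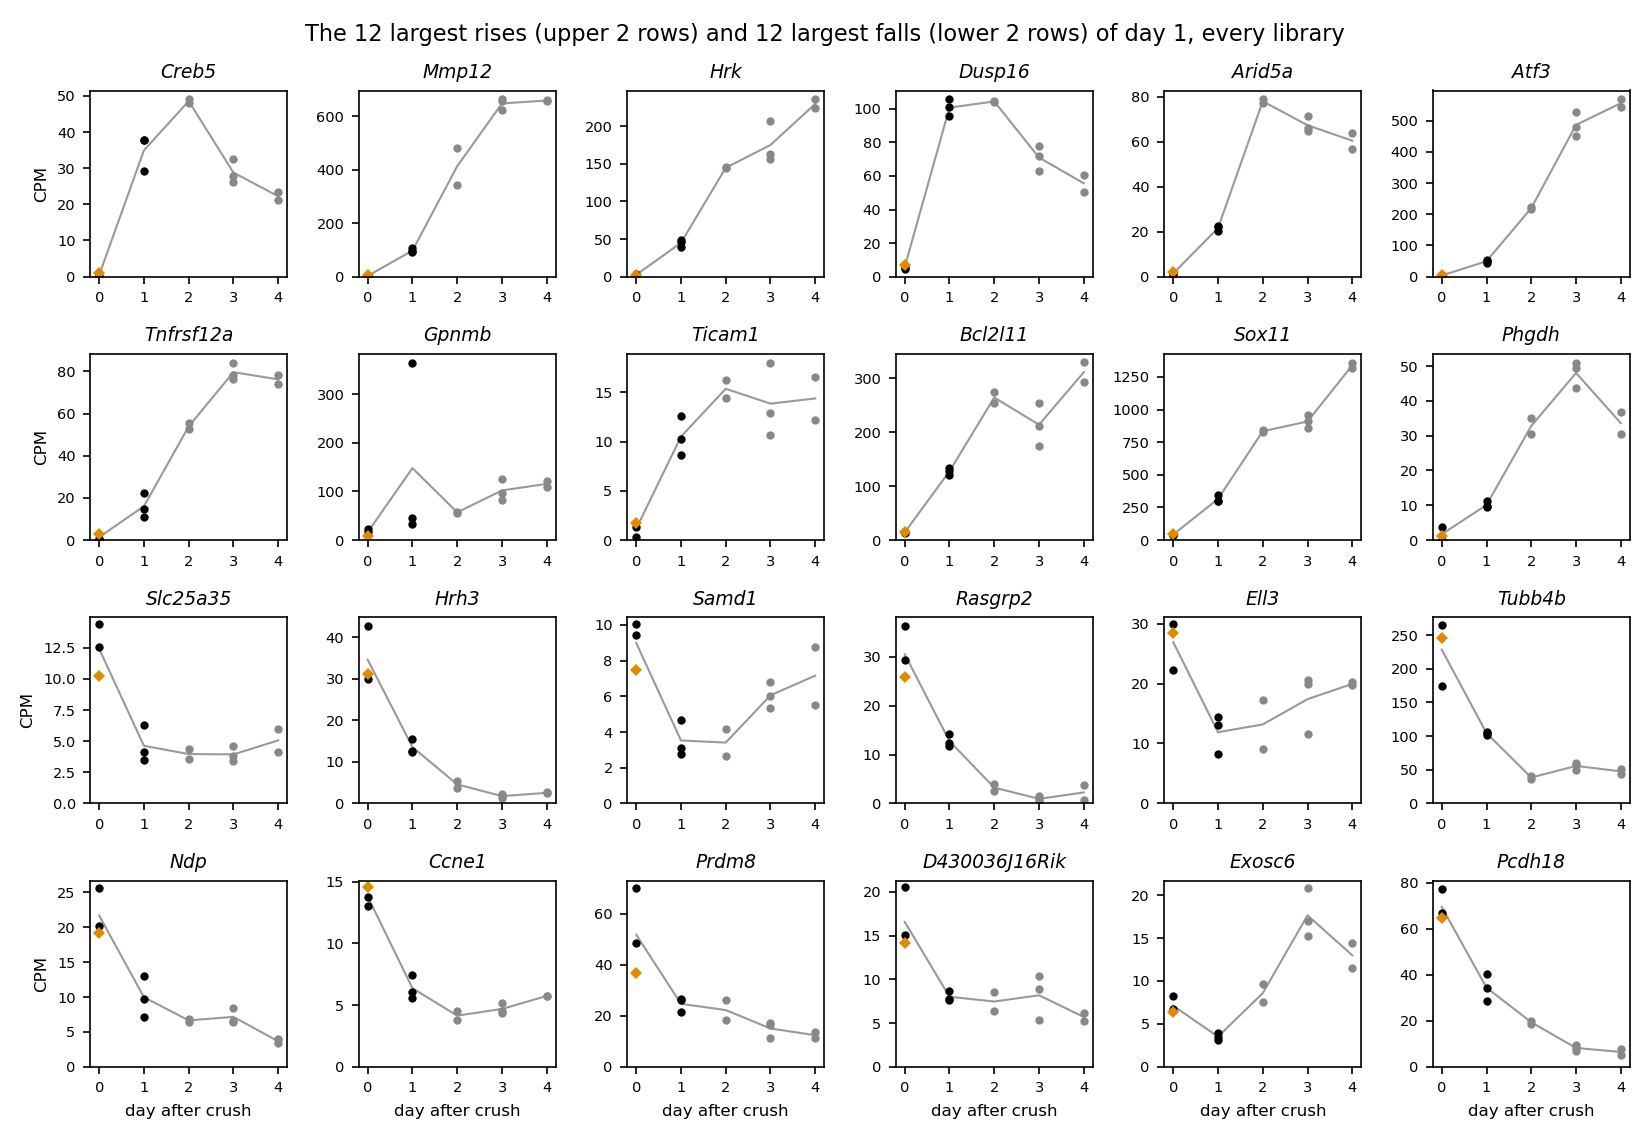
CPM of the 12 genes with the largest rises and the 12 with the largest falls on day 1, in every RNA library (points) with the mean per day (line), against the day after crush. Black points are the day 0 and day 1 libraries that were compared, the orange diamond is no crush replicate 3, and grey points are later days. The 3 day 1 points lie clear of the 3 day 0 points in every panel because the rule that chose these genes asked for it.

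Genes of the integrated stress response rose together. The list held genes of ATF4, its partners and its known targets in amino acid synthesis, amino acid transport and cell death, with the eIF2α kinases. Of 39 members tested, 28 were higher (71.8%) and 1 lower (2.56%), beside 5.93% and 5.45% of all genes tested. The median change was 1.15 on the log2 scale, beside a median of 0.01 over all genes tested. Without no crush replicate 3 the count was 26 higher and 1 lower, and across all 6 leave-one-out fits it lay between 24 and 32 higher.

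Atf4 itself, whose product is mainly controlled by translation, rose modestly, from 271, 165 and 153 CPM to 327, 334 and 321 CPM (1.67-fold; log2 0.74 ± 0.15, SE; adjusted p = 0.00424). The calls of Atf4 and Chac1 were lost when only days 0 and 1 were fitted and no crush replicate 3 was left out as well. Ddit3, which encodes the pro-apoptotic factor CHOP, went from 23.8, 16 and 22.8 CPM to 123, 113 and 127 CPM, a 5.79-fold rise (log2 2.53 ± 0.13, SE; adjusted p = 1.27e-09). Trib3, a pseudokinase gene induced by ATF4 and CHOP, went from 1.08, 0.173 and 0.233 CPM to 9.02, 8.13 and 6.29 CPM, 16.6-fold (log2 4.06 ± 0.46, SE; adjusted p = 2.76e-05) and 36.5-fold without no crush replicate 1. Both groups of each of Atf4, Ddit3 and Trib3 were clear of each other.

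Among metabolic members, Psph, the last enzyme gene of serine synthesis, rose 4.08-fold (log2 2.03 ± 0.24, SE; adjusted p = 3.17e-05). Shmt2, which encodes the mitochondrial serine hydroxymethyltransferase, rose 2.55-fold (log2 1.35 ± 0.13, SE; adjusted p = 2.89e-06) from 10.7, 11.2 and 13.4 CPM to 25.7, 31.4 and 33.2 CPM. The amino acid transporter gene Slc7a5 rose 3.51-fold (log2 1.81 ± 0.25, SE; adjusted p = 0.000211), and Asns, for asparagine synthetase, 1.54-fold (log2 0.63 ± 0.14, SE; adjusted p = 0.00965). The call of Asns was lost with only days 0 and 1 fitted (adjusted p = 0.065) and with limma, and its FDR in the authors' deposited table was 0.0722. The stress sensor gene Sesn2 rose 4.16-fold (log2 2.06 ± 0.18, SE; adjusted p = 1.23e-06). These are genes whose products supply or sense amino acids.

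The eIF2α kinases did not move alike. Eif2ak3, which encodes PERK, the kinase of the endoplasmic reticulum, stood at 18.7, 23.5 and 14.5 CPM without crush and 59.2, 50.2 and 61.2 CPM on day 1 and rose 3.01-fold (log2 1.59 ± 0.17, SE; adjusted p = 1.78e-05). Eif2ak1, which encodes the haem-regulated kinase HRI, was the lower member, at 83.1, 80.7 and 68.1 CPM without crush and 63.2, 56.8 and 53.5 CPM on day 1 (log2 -0.42 ± 0.12, SE; adjusted p = 0.0379). The call of Eif2ak1 was lost without no crush replicate 1 or 2 or day 1 replicate 2 or 3, at adjusted p values from 0.0768 to 0.131.

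Replicate 1 of the no crush group was the highest of its group for several of these genes. Chac1, which encodes a glutathione-degrading enzyme, stood at 31.1, 4.14 and 6.14 CPM without crush and 67.4, 79.2 and 86.6 CPM on day 1. The rise of 5.77-fold (log2 2.53 ± 0.45, SE; adjusted p = 0.00181) became 14.7-fold without that library. The summed level of the 39 members was 1922, 1307 and 1343 without crush and 2607, 2736 and 2597 on day 1 CPM, so the groups did not overlap with it included. The part of that library in the results was measured only by leaving it out, and its cause was not tested.

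Aminoacyl-tRNA synthetases, which charge tRNAs and are also ATF4 targets, rose in part. Of 19 tested, 9 were higher (47.4%, beside 5.93% of all genes tested) and 0 lower. The median was 0.27 on the log2 scale, and between 7 and 9 were higher in the leave-one-out fits. Sars, the seryl-tRNA synthetase gene, went from 177, 157 and 165 CPM to 277, 292 and 338 CPM (1.82-fold; log2 0.86 ± 0.09, SE; adjusted p = 8.11e-06), and Tars rose 1.73-fold (log2 0.79 ± 0.11, SE; adjusted p = 0.000221).

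Genes of endoplasmic reticulum protein folding had few calls. Of 22 endoplasmic reticulum chaperone genes, 1 was higher (4.55%, near the 5.93% of all genes tested) and 2 were lower (9.09%, beside 5.45%). Herpud1, which acts in degradation of misfolded endoplasmic reticulum proteins, rose 2.2-fold (log2 1.14 ± 0.17, SE; adjusted p = 0.000314), while the chaperone genes Hyou1 and Dnajb11 fell to 0.58 and 0.724 of the no crush level (log2 -0.78 ± 0.12, SE; adjusted p = 0.000349 for Hyou1). Without no crush replicate 1 there were 7 lower genes, without day 1 replicate 1 there were 6, and the higher count was 2 without day 1 replicate 3. Of 21 cytosolic heat shock genes, 3 were higher (14.3%) and 6 lower (28.6%). Hsph1, a co-chaperone gene of the HSP110 family, stood at 297, 363 and 305 CPM without crush and 229, 224 and 179 CPM on day 1 (log2 -0.61 ± 0.10, SE; adjusted p = 0.000823), and Bag3, of chaperone-assisted autophagy, rose 1.67-fold (log2 0.74 ± 0.17, SE; adjusted p = 0.00852). The number of higher heat shock genes was 1 without no crush replicate 1, and without day 1 replicate 2 or 3, and the number of lower ones was 3 without day 1 replicate 3.

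Promoters of the genes that rose were searched for 4 short motifs. The promoter was taken as 250 bases before to 50 after each annotated start (RefSeq, GRCm38.p6, the same build as mm10), and 10797 of the 13737 genes had at least 1. The C/EBP-ATF response element (CARE, searched as TGATGNAA on both strands) is the site bound by ATF4 with a C/EBP partner. It was found in 5.84% of promoters of higher genes, 1.37% of those of lower genes and 2.37% of all 13828 promoters. The 6 promoters below are shown because they belong to genes with large rises and hold a CARE, which is in capitals with the full cyclic AMP response element (CRE, TGACGTCA) where one is present.
Atf3, chr1:191183284-191183583, minus strand: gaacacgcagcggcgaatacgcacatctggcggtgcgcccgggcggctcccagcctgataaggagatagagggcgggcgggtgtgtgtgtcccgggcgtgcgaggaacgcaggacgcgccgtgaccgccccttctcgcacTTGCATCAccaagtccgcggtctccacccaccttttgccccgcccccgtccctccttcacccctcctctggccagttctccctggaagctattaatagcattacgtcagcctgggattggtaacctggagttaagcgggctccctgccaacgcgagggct
Hrk, chr5:118169514-118169813, plus strand: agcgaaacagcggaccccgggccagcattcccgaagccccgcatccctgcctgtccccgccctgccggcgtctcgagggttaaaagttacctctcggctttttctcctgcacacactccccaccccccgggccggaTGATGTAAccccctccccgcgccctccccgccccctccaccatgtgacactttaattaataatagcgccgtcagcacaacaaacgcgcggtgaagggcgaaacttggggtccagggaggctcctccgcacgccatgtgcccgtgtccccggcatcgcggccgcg
Arid5a, chr1:36307483-36307782, plus strand: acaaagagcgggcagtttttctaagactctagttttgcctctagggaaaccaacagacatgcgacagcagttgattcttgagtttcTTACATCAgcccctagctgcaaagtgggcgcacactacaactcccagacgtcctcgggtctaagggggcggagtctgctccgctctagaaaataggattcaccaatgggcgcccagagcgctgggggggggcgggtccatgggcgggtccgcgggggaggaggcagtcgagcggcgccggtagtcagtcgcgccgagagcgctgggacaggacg
Creb5, chr6:53287053-53287352, plus strand: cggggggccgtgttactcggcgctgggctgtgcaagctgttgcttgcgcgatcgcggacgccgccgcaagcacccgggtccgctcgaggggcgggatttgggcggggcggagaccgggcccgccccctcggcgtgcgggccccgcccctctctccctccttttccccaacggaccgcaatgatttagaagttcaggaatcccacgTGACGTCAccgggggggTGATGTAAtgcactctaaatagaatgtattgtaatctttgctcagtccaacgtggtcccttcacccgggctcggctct
Chac1, chr2:119350992-119351291, plus strand: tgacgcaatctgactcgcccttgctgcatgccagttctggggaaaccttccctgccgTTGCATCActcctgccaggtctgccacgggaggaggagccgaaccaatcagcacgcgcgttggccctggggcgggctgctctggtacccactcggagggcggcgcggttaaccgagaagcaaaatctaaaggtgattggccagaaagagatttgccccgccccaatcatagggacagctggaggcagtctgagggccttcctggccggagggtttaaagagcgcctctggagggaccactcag
Trib3, chr2:152344011-152344310, minus strand: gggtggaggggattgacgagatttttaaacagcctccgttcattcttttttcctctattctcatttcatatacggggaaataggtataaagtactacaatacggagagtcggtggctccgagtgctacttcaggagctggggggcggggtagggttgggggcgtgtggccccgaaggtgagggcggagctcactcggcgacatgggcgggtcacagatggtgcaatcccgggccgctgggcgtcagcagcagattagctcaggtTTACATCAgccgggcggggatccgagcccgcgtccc
Among the 12 largest rises these were Atf3, Hrk, Arid5a and Creb5. In Creb5 the CRE and the CARE lie a few bases apart in one promoter, and a second annotated Creb5 promoter also held a CARE. Of the 24 higher integrated stress response genes with a promoter in the table, 7 held a CARE (Asns, Atf3, Chac1, Nupr1, Pck2, Slc1a4 and Trib3). Of all 34 tested members with a promoter 10 did, which adds Pycr1, Slc7a11 and Vldlr, not called higher. These are counts of genes, while the shares above are of promoters. The list was made from known ATF4 targets, so these counts are no separate support for ATF4. A match is a stretch of letters and no measure of binding.

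The CRE was in 4.77% of promoters of higher genes, 2.24% of lower genes and 2.93% of all. The AP-1 site (TGANTCA) was in 8.58%, 3.87% and 5.11%. The interferon-stimulated response element was in 4.05%, 1.37% and 2.82%. Promoters of higher genes had a median GC content of 60.0%, those of lower genes 63.7% and those of all genes 60.3%, so the lower genes were somewhat richer in G and C.

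Of the immediate early and AP-1 genes, Jun rose most clearly. Jun, which encodes the AP-1 subunit c-Jun, stood at 58, 81.6 and 125 CPM without crush and 459, 488 and 477 CPM on day 1. Its no crush libraries differed among themselves, with replicate 3 highest, and all lay far below day 1 (5.37-fold; log2 2.43 ± 0.18, SE; adjusted p = 2.07e-07). Fos, the gene of the usual partner of c-Jun, stood at 48, 51.6 and 98.5 CPM without crush and 44.8, 57.5 and 72.3 CPM on day 1. Those groups overlapped (log2 -0.18 ± 0.24, SE; adjusted p = 0.69), and the sign of this small difference turned without no crush replicate 3.

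Of 21 members of that list, 8 were higher (38.1%) and 1 lower (4.76%), beside 5.93% and 5.45% of all genes tested. The median was -0.04 on the log2 scale and changed sign in leave-one-out fits, so the list did not move as a whole. Egr1, an activity-regulated transcription factor gene, rose 2.33-fold (log2 1.22 ± 0.13, SE; adjusted p = 1.85e-05), and Btg2, an antiproliferative gene, 2.73-fold (log2 1.45 ± 0.20, SE; adjusted p = 0.000199). Without day 1 replicate 1 the list held 4 higher genes and 0 lower.

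In the DLK and JNK pathway 3 phosphatase genes rose by large amounts, and the changes among its kinase and scaffold genes were small. Dusp16, which encodes a phosphatase that inactivates JNK, stood at 5.79, 4.62 and 6.73 CPM without crush and 106, 101 and 95.5 CPM on day 1. It rose 17.6-fold with little spread in either group (log2 4.14 ± 0.14, SE; adjusted p = 1.3e-11). Dusp8, for another phosphatase that acts on JNK, stood at 119, 98.3 and 85.7 CPM without crush and 268, 274 and 318 CPM on day 1 and rose 2.84-fold (log2 1.5 ± 0.11, SE; adjusted p = 1.36e-07). Dusp1, for a phosphatase of several MAP kinases, rose 2.69-fold (log2 1.43 ± 0.11, SE; adjusted p = 3.49e-07).

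The scaffold gene Spag9 (JIP4) was the 4th higher gene, at 1.28-fold (log2 0.36 ± 0.07, SE; adjusted p = 0.00301). Map3k12, the gene of DLK, stood at 116, 94.6 and 88.6 CPM without crush and 109, 118 and 108 CPM on day 1, and its groups overlapped (log2 0.17 ± 0.12, SE; adjusted p = 0.408). Mapk8, the gene of JNK1, fell to 0.814 of the no crush level (log2 -0.30 ± 0.07, SE; adjusted p = 0.0171; 0.0572 without day 1 replicate 3). Of 23 members 4 were higher (17.4%) and 3 lower (13%), beside 5.93% and 5.45% of all genes tested. The other lower ones were the JNK3 gene Mapk10 and the scaffold gene Mapk8ip3, both named after their values were seen. Mapk10 and Mapk8ip3 lost their calls without no crush replicate 3 (adjusted p = 0.0551 and 0.0943). In this list 1 gene was lower without no crush replicate 3 or day 1 replicate 1, and 0 were without day 1 replicate 3.

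Of 24 BCL2 family and caspase genes 4 were higher (16.7%, beside 5.93% of all genes tested) and 0 lower, and those described here encode BH3-only proteins. These start mitochondrial cell death by blocking survival proteins of the BCL2 family. Hrk, for the neuronal BH3-only protein harakiri, stood at 2.87, 2.2 and 1.79 CPM without crush and 39.4, 46.2 and 49.2 CPM on day 1, a 19.9-fold rise (log2 4.32 ± 0.16, SE; adjusted p = 3.2e-11). Bcl2l11, for BIM, stood at 15.1, 13.1 and 14.6 CPM without crush and 121, 133 and 128 CPM on day 1, a 8.92-fold rise (log2 3.16 ± 0.12, SE; adjusted p = 5.11e-11). Bbc3, for PUMA, stood at 2.27, 3.11 and 2.92 CPM without crush and 7.95, 8.62 and 8.6 CPM on day 1, a 3.02-fold rise (log2 1.59 ± 0.25, SE; adjusted p = 0.000519).

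In all 3 genes each day 1 library was above each no crush library, as the naming rule asked of Hrk and Bcl2l11. Mean levels on days 2, 3 and 4 were 145, 175 and 229.8 CPM for Hrk and 264, 214 and 311 CPM for Bcl2l11.

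Of 15 p53 target genes 5 were higher (33.3%, beside 5.93% of all genes tested) and 1 was lower (6.67%, near the 5.45% of all genes). Cdkn1a, which encodes the cell cycle inhibitor p21, stood at 14.4, 13.1 and 17 CPM without crush and 60.1, 65.3 and 59.3 CPM on day 1 and rose 4.15-fold (log2 2.05 ± 0.12, SE; adjusted p = 1.01e-08). The growth arrest gene Gadd45a rose 2.51-fold (log2 1.33 ± 0.14, SE; adjusted p = 9.13e-06). Trp53inp1 rose 1.74-fold (log2 0.80 ± 0.17, SE; adjusted p = 0.00539) and Gadd45b 3.03-fold (log2 1.60 ± 0.40, SE; adjusted p = 0.0151). The call of Gadd45b was lost without no crush replicate 1 (adjusted p = 0.0518) or day 1 replicate 3 (adjusted p = 0.0837). The higher count of the list was 3 without either of these libraries, and the lower count was 2 without no crush replicate 3.

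Genes associated with axon growth changed in both directions. Of 34 tested, 10 were higher (29.4%) and 3 lower (8.82%), beside 5.93% and 5.45% of all genes tested. The median was 0.10, and the lower count was 5 without no crush replicate 1. Stmn4, a gene of the stathmin family of microtubule regulators, stood at 90.3, 141 and 116 CPM without crush and 676, 682 and 628 CPM on day 1 and rose 5.7-fold (log2 2.51 ± 0.12, SE; adjusted p = 1.09e-09). Smad1, a transcription factor gene of BMP signalling, rose 2.64-fold (log2 1.40 ± 0.13, SE; adjusted p = 2.68e-06). Klf6, for a zinc finger factor linked to axon growth, rose 1.6-fold (log2 0.68 ± 0.07, SE; adjusted p = 8.11e-06).

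Gap43, the classical growth cone gene, stood at 186, 188 and 226 CPM without crush and 202, 224 and 179 CPM on day 1. Its groups overlapped (log2 0.01 ± 0.09, SE; adjusted p = 0.961), and its sign varied with the scaling. Its mean levels on days 2, 3 and 4 were 272, 481 and 694 CPM. Marcks, which encodes an actin-binding substrate of protein kinase C, was among the lower genes, at 472, 459.6 and 448 CPM without crush and 300.3, 276 and 223 CPM on day 1 (log2 -0.79 ± 0.10, SE; adjusted p = 8.49e-05).

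In IL-6 family signalling, which can promote RGC axon growth, 2 of 18 genes were higher (11.1%, beside 5.93% of all genes tested) and 0 lower. Stat3, the transcription factor gene of that pathway, stood at 40.2, 44.8 and 82 CPM without crush and 151, 131 and 129 CPM on day 1 and rose 2.46-fold (log2 1.30 ± 0.20, SE; adjusted p = 0.00046), with no crush replicate 3 the highest of its group. Its feedback inhibitor gene Socs3 stood at 2.76, 1.73 and 2.14 CPM without crush and 9.28, 6.19 and 4.76 CPM on day 1 and rose 3.06-fold (log2 1.61 ± 0.34, SE; adjusted p = 0.0056).

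Matrix and adhesion genes beside Mmp12 included Timp3, which encodes an inhibitor of metalloproteinases. Timp3 stood at 14.3, 9.32 and 17.9 CPM without crush and 59.8, 53.7 and 60.7 CPM on day 1, a 4.18-fold rise (log2 2.06 ± 0.24, SE; adjusted p = 2.63e-05). The syndecan gene Sdc3 rose 1.66-fold (log2 0.73 ± 0.13, SE; adjusted p = 0.00132), and the fibronectin receptor subunit gene Itga5 3.51-fold (log2 1.81 ± 0.36, SE; adjusted p = 0.00381), which was 6.27-fold without no crush replicate 2. The call of Itga5 was lost with only days 0 and 1 fitted (adjusted p = 0.0937). Ncam2, a neural cell adhesion gene, fell to 0.686 of the no crush level (log2 -0.54 ± 0.11, SE; adjusted p = 0.00318). Of 37 members 7 were higher (18.9%) and 5 lower (13.5%), beside 5.93% and 5.45% of all genes tested. The lower count was 3 without day 1 replicate 2.

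RGC identity genes fell as a group, and by small amounts. Of 22 tested 13 were lower (59.1%, beside 5.45% of all genes tested) and 0 higher, with a median of -0.36 on the log2 scale. The lower count was 10 without no crush replicate 3 and between 8 and 13 over the leave-one-out fits. It was 8 without day 1 replicate 3. Chrna6, a nicotinic receptor subunit gene of RGCs, stood at 531, 583 and 578 CPM without crush and 314, 309.5 and 331 CPM on day 1. Its groups were clear of each other, and day 1 was at 0.564 of the no crush level (log2 -0.83 ± 0.09, SE; adjusted p = 2.05e-05).

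Rbpms was at 0.679 of the no crush level (log2 -0.56 ± 0.07, SE; adjusted p = 0.000117). The transcription factor gene Pou4f1 (BRN3A) stood at 460.2, 348 and 413 CPM without crush and 299, 295 and 297 CPM on day 1 (log2 -0.46 ± 0.10, SE; adjusted p = 0.00676). Its relative Pou4f2 (BRN3B) stood at 246, 218 and 219 CPM without crush and 189, 170.4 and 156 CPM on day 1 (log2 -0.41 ± 0.10, SE; adjusted p = 0.015), and Isl1, a LIM-homeodomain gene, at 80.5, 100.4 and 99.9 CPM without crush and 68.1, 60.6 and 62.7 CPM on day 1 (log2 -0.55 ± 0.13, SE; adjusted p = 0.0103). Pou4f2 had an adjusted p of 0.0686 without day 1 replicate 3. In each of these the day 1 libraries lay all below the no crush libraries.

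Other RGC markers did not pass the test. Slc17a6 had a log2 change of -0.13 ± 0.09 (SE; adjusted p = 0.368). Sncg, the gamma-synuclein gene, stood at 364, 429 and 436 CPM without crush and 361, 378 and 489.9 CPM on day 1 (adjusted p = 0.997), and the sign of its near-zero change varied with the setting. Thy1, a surface glycoprotein gene often used to sort RGCs, passed with all libraries (log2 -0.28 ± 0.08, SE; adjusted p = 0.0357) and lost its call without no crush replicate 3 (adjusted p = 0.0725) and without each of the day 1 replicates (adjusted p of at least 0.062).

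Genes that mark RGC subtypes moved in both directions, with 7 of 26 lower (26.9%) and 3 higher (11.5%). Over all genes tested 5.45% were lower and 5.93% higher. The lower count was 4 without day 1 replicate 3, and the higher count was 1 without day 1 replicate 1. Calb1, which encodes the calcium buffer calbindin, stood at 147, 160.3 and 145 CPM without crush and 80.1, 82 and 90.2 CPM on day 1 (log2 -0.84 ± 0.13, SE; adjusted p = 0.000428). Jam2, an adhesion gene of a direction-selective type, was at 0.637 of the no crush level (log2 -0.65 ± 0.12, SE; adjusted p = 0.00185). Cartpt, the neuropeptide gene of another direction-selective type, moved the other way, from 247, 221 and 422 CPM to 588, 552 and 615 CPM (1.97-fold; log2 0.98 ± 0.18, SE; adjusted p = 0.00195). Whether cells of some types were fewer or held less of these RNAs cannot be told apart here.

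Ion channel genes fell more often than they rose. Of 35 potassium channel genes 9 were lower (25.7%) and 1 higher (2.86%). Of 8 sodium channel genes 3 were lower (37.5%) and 0 higher, and of 21 calcium channel genes 4 were lower (19%) and 1 higher (4.76%). Over all genes tested 5.45% were lower and 5.93% higher. The medians of the channel lists, in that order, were -0.30, -0.33 and -0.23 on the log2 scale. The higher potassium channel gene, the beta subunit gene Kcnab1, was named after its values were seen, and lost its call in each leave-one-out fit except that without no crush replicate 1 (adjusted p = 0.0645 to 0.159). For calcium channels the lower count was 2 without day 1 replicate 3.

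Kcna2, of axonal low-threshold potassium channels, was at 0.707 of the no crush level (log2 -0.50 ± 0.08, SE; adjusted p = 0.000962). Scn8a, the sodium channel gene of mature axon initial segments, stood at 754, 674 and 726 CPM without crush and 451, 520.2 and 440.4 CPM on day 1 (log2 -0.61 ± 0.09, SE; adjusted p = 0.000316). Scn1a was at 0.758 (log2 -0.40 ± 0.09, SE; adjusted p = 0.00696) and the P/Q-type calcium channel gene Cacna1a at 0.704 (log2 -0.51 ± 0.10, SE; adjusted p = 0.00266). Cacng3, an AMPA receptor auxiliary subunit gene counted among the calcium channels, rose 1.62-fold (log2 0.69 ± 0.14, SE; adjusted p = 0.0053).

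Transmitter receptor genes showed the same balance, with 14 of 42 lower (33.3%, beside 5.45% of all genes tested) and 1 higher (2.38%, beside 5.93%). The median was -0.31, and the lower count was 10 without no crush replicate 3. Gabrb2, which encodes a subunit of the GABA-A receptor, was at 0.653 of the no crush level (log2 -0.61 ± 0.08, SE; adjusted p = 7.56e-05). Htr1b, a serotonin receptor gene, stood at 32.9, 38.2 and 40 CPM without crush and 16, 22.8 and 21 CPM on day 1 (log2 -0.89 ± 0.19, SE; adjusted p = 0.00586), a call that was lost with the authors' first 2 sequencing components as terms. The exception was the nicotinic subunit gene Chrna3, at 141, 111 and 169 CPM without crush and 219, 233 and 208 CPM on day 1, a 1.57-fold rise (log2 0.65 ± 0.12, SE; adjusted p = 0.00201).

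Of 33 vesicle release genes 8 were lower (24.2%, beside 5.45% of all genes tested) and 1 higher (3.03%, beside 5.93%), with a median of -0.18. Rab3c, a synaptic vesicle GTPase gene, was at 0.728 of the no crush level (log2 -0.46 ± 0.07, SE; adjusted p = 0.000253), and Pclo, of the presynaptic active zone, at 0.656 (log2 -0.61 ± 0.12, SE; adjusted p = 0.00301). Syt11, of the synaptotagmin family, rose 1.48-fold (log2 0.56 ± 0.08, SE; adjusted p = 0.00038).

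Of 17 tubulin and tubulin-related genes 9 were lower (52.9%, beside 5.45% of all genes tested) and 0 higher. Of the 17, 5 had a positive sign, and the median was -0.34. Between 7 and 10 were lower in the leave-one-out fits. Tubb4b, a beta-tubulin gene, stood at 174, 265 and 246 CPM without crush and 106, 102 and 105 CPM on day 1 and fell to 0.457 of the no crush level (log2 -1.13 ± 0.13, SE; adjusted p = 3.35e-05). Tuba1b, an alpha-tubulin gene, stood at 641, 758 and 706 CPM without crush and 377, 357 and 390.5 CPM on day 1 and fell to 0.535 (log2 -0.90 ± 0.08, SE; adjusted p = 2.68e-06). Tppp3, for a tubulin polymerisation-promoting protein, fell to 0.514 (log2 -0.96 ± 0.09, SE; adjusted p = 3.6e-06). Tubulin genes are close copies of each other, so reads could be split between them, and their single values are uncertain to that extent.

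Of 23 axonal transport motor genes 2 were higher (8.7%, near the 5.93% of all genes) and 4 lower (17.4%, beside 5.45%), and the lower count was 1 without day 1 replicate 1 or 3 and 2 without no crush replicate 3. Dync1li2, a light intermediate chain gene of cytoplasmic dynein, the motor that runs towards the cell body, stood at 352, 432 and 407 CPM without crush and 658, 683 and 658 CPM on day 1 and rose 1.68-fold (log2 0.75 ± 0.08, SE; adjusted p = 1.64e-05). Dctn2, for a dynactin subunit, rose 1.39-fold (log2 0.47 ± 0.10, SE; adjusted p = 0.00481). Kif1b, of a kinesin that runs towards the axon tip, was at 0.841 of the no crush level (log2 -0.25 ± 0.06, SE; adjusted p = 0.0205), and lost its call without replicate 2 or 3 of day 1 (adjusted p = 0.0507 and 0.0546).

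The 12 largest falls among well-counted genes were Slc25a35, Hrh3, Samd1, Rasgrp2, Ell3, Tubb4b, Ndp, Ccne1, Prdm8, D430036J16Rik, Exosc6 and Pcdh18. The rule that chose them asked for no overlap between the groups. Hrh3, a histamine receptor gene, stood at 42.8, 30 and 31.1 CPM without crush and 12.5, 15.6 and 12.7 CPM on day 1. All day 1 libraries were below all no crush libraries (log2 -1.35 ± 0.22, SE; adjusted p = 0.000907), and the mean levels on days 2, 3 and 4 were 4.59, 1.77 and 2.55 CPM. Slc25a35, a mitochondrial carrier gene, stood at 14.4, 12.6 and 10.3 CPM without crush and 4.15, 3.45 and 6.29 CPM on day 1 (log2 -1.42 ± 0.29, SE; adjusted p = 0.00482). Ndp, which encodes norrin, a ligand that supports retinal vessels, stood at 20.2, 25.6 and 19.2 CPM without crush and 13.1, 7.12 and 9.76 CPM on day 1 (log2 -1.12 ± 0.23, SE; adjusted p = 0.00547).

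Prdm8, a neuronal transcription factor gene, stood at 69.9, 48.4 and 36.9 CPM without crush and 26.3, 26.4 and 21.3 CPM on day 1 (log2 -1.07 ± 0.22, SE; adjusted p = 0.00545). Pcdh18, a protocadherin gene, stood at 77.2, 66.6 and 64.4 CPM without crush and 34.2, 28.7 and 40.2 CPM on day 1 (log2 -1.01 ± 0.17, SE; adjusted p = 0.000867), with mean levels of 19.4, 8.19 and 6.46 CPM on days 2, 3 and 4. Exosc6, which encodes a subunit of the RNA exosome, had a different time course in the means. It stood at 6.77, 8.2 and 6.38 CPM without crush and 3.44, 3.18 and 3.93 CPM on day 1 (log2 -1.02 ± 0.22, SE; adjusted p = 0.0076), and its mean levels on days 2, 3 and 4 were 8.59, 17.7 and 13 CPM, each above all 3 no crush libraries, with no test made.

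Of these 12 genes 4 lost their call under some alternative other than a required fold of 2. Rasgrp2, a Ras and Rap exchange factor gene, stood at 36.3, 29.4 and 25.9 CPM without crush and 12.3, 11.8 and 14.2 CPM on day 1, with an adjusted p of 0.0476, and the adjusted p lay between 0.0424 and 0.126 with single libraries left out. It was above 0.05 without no crush replicate 1 or 2 and without any of the day 1 replicates. D430036J16Rik lost its call without day 1 replicate 3 (adjusted p = 0.05015) and with the sequencing components as terms. Samd1 lost its call with the sequencing components, and Exosc6 with these and with only days 0 and 1 fitted (adjusted p = 0.0642).

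**Figure D3:**
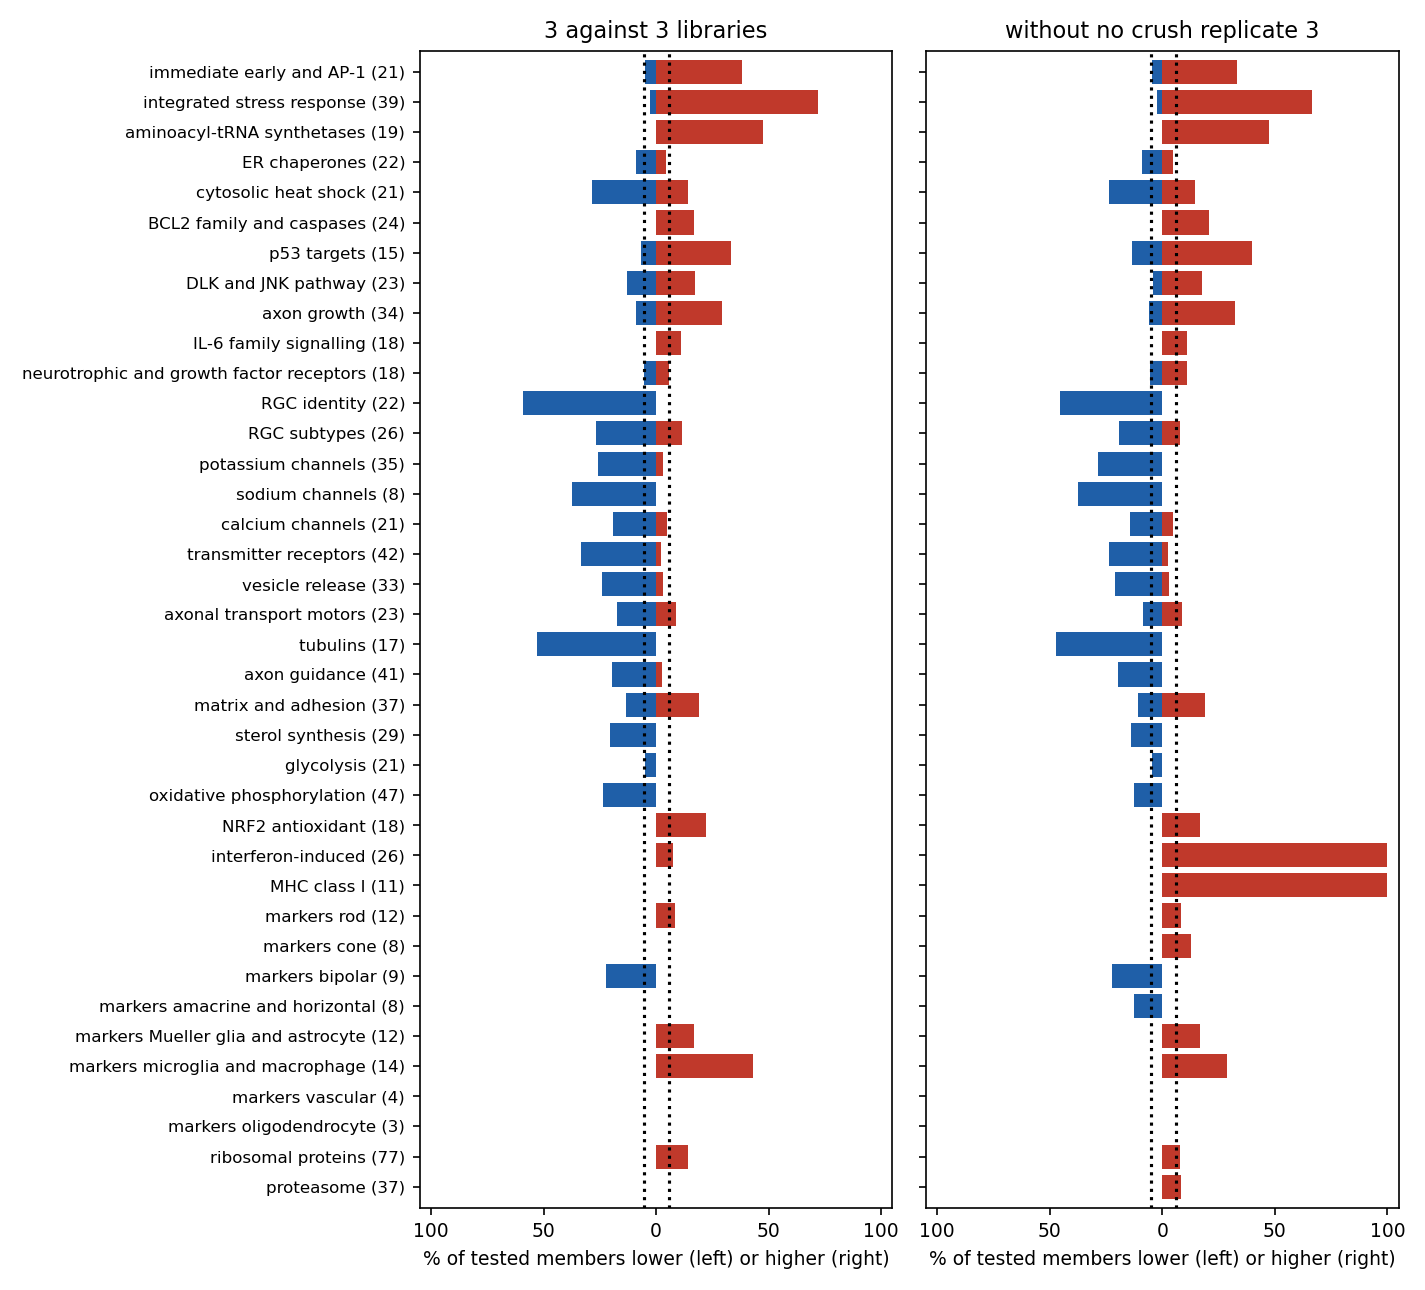
Share of tested members of each gene list that was higher (red, to the right) or lower (blue, to the left) on day 1, in percent, with the number tested in brackets. Dotted lines give the shares over all genes (5.93% higher and 5.45% lower in the left panel, 6.22% and 4.96% in the right panel). The right panel leaves out no crush replicate 3, where all 26 interferon-induced and all 11 MHC class I genes were higher.

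Metabolic genes showed small shifts. Of 47 oxidative phosphorylation genes 11 were lower (23.4%, beside 5.45% of all genes tested) and 0 higher. Of the 47, 46 had a negative sign, and the median was -0.22. The lower count was 6 without no crush replicate 2 or 3 or day 1 replicate 1, 5 without day 1 replicate 3 and 4 without day 1 replicate 2. Ndufa4, a respiratory chain subunit gene, stood at 209, 234 and 221 CPM without crush and 177, 165 and 166 CPM on day 1 (log2 -0.39 ± 0.08, SE; adjusted p = 0.00461). Of 29 sterol synthesis genes 6 were lower (20.7%, beside 5.45% of all genes tested) and 0 higher. Without no crush replicate 3, or without day 1 replicate 3, 4 were lower. Among 21 glycolysis genes 1 was lower (4.76%, near the 5.45% of all genes tested). It was Pfkfb3, which encodes a regulator of glycolytic rate, at 0.634 (log2 -0.66 ± 0.15, SE; adjusted p = 0.0114). The lower count of glycolysis genes was 4 without no crush replicate 1.

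Of 18 antioxidant genes controlled by the factor NRF2, 4 were higher (22.2%, beside 5.93% of all genes tested) and 0 lower. Hmox1, which encodes haem oxygenase and is also an ATF4 target, stood at 4.11, 3.8 and 4.12 CPM without crush and 17, 19 and 18.3 CPM on day 1 and rose 4.51-fold (log2 2.17 ± 0.13, SE; adjusted p = 1.2e-08). Srxn1, for sulfiredoxin, rose 1.5-fold (log2 0.58 ± 0.08, SE; adjusted p = 0.000123), and Sqstm1, the gene of the autophagy receptor p62, 1.62-fold (log2 0.69 ± 0.10, SE; adjusted p = 0.000321). The list's median was -0.02, and 2 members were lower without no crush replicate 1.

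Interferon-induced genes separated the libraries in another way than crush did. The summed level of 26 such genes was 295, 315 and 3971 without crush and 4180.3, 4527 and 2075 on day 1 CPM. No crush replicates 1 and 2 were low, while no crush replicate 3 was as high as the day 1 libraries and above day 1 replicate 3. In the fit with all libraries 2 of 26 genes were higher (7.69%, near the 5.93% of all genes tested). Without no crush replicate 3 all 26 were, and the median went from 1.54 to 4.65. Ifit2, an antiviral effector gene, stood at 28.8, 33.1 and 169 CPM without crush and 506, 407 and 184 CPM on day 1.

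Its rise was 4.72-fold (log2 2.24 ± 0.57, SE; adjusted p = 0.0179) and 11.7-fold without no crush replicate 3. The other, the GTPase gene Gbp2, stood at 1.46, 0.0863 and 9.22 CPM without crush and 51.8, 15.1 and 8.46 CPM on day 1 (log2 2.77 ± 0.86, SE; adjusted p = 0.047), so its groups overlapped. The call of Ifit2 was lost without no crush replicate 1 or 2 or day 1 replicate 1 (adjusted p = 0.055 to 0.0722). That of Gbp2 was lost without any 1 library other than no crush replicate 3 and day 1 replicate 3, as for example at an adjusted p of 0.266 without day 1 replicate 1.

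MHC class I genes followed the same division. Of 11 genes 0 were higher in the fit with all libraries and 11 without no crush replicate 3. B2m, which encodes beta-2-microglobulin, stood at 169, 150.3 and 1363 CPM without crush and 2008, 904 and 1039 CPM on day 1 (log2 1.23 ± 0.60, SE; adjusted p = 0.206), and was 8.16-fold higher without that library. H2-K1 stood at 45, 87.2 and 649 CPM without crush and 785, 341 and 739 CPM on day 1 (log2 1.25 ± 0.64, SE; adjusted p = 0.235). The summed interferon level was 4641 and 1535 CPM in the 2 day 2 libraries, 207 to 237 CPM in the 3 day 3 libraries and 824 and 968 CPM in the 2 day 4 libraries. What set no crush replicate 3 apart was not tested. Its interferon level was like that of day 1. Its summed level of integrated stress response genes, 1343 CPM, lay with the other no crush libraries (1922 and 1307 CPM) and below day 1 (2597 to 2736 CPM). Whether its label as a no crush library is right was not tested.

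**Figure D4:**
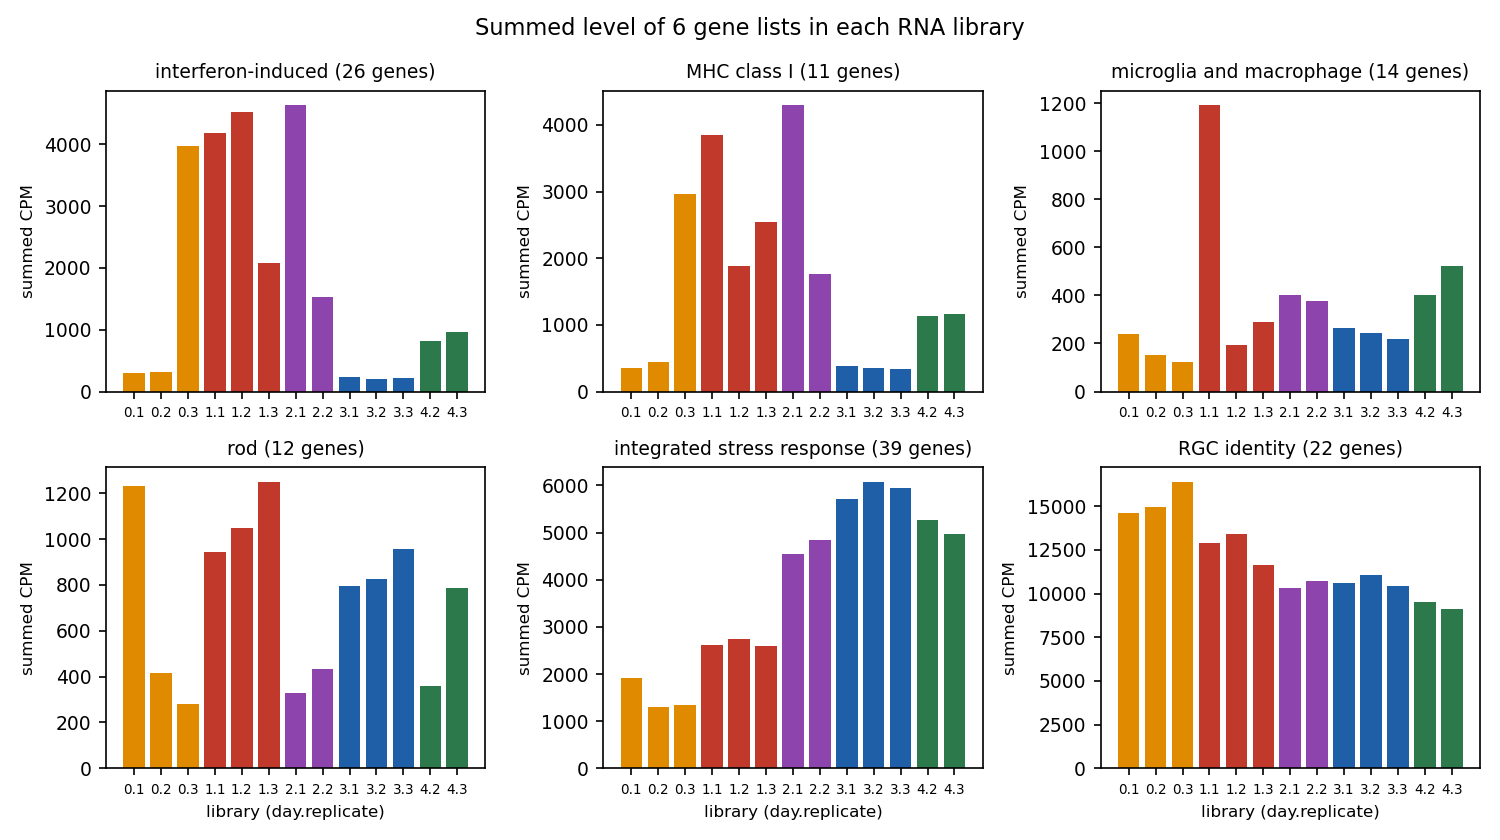
Summed CPM of 6 gene lists (vertical axis, from 0) in each RNA library, named by day and replicate, with 1 colour per day. Interferon-induced and MHC class I genes were high in no crush replicate 3 (0.3) and in all day 1 libraries, and microglial markers were highest in day 1 replicate 1 (1.1).

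Microglial and macrophage marker genes were higher on day 1 in 1 library above all. The summed level of 14 markers was 240.4, 151 and 124 without crush and 1193, 191 and 288 on day 1 CPM. Of these 6 were higher and 0 lower, beside the 5.93% over all genes, and the number was 1 without day 1 replicate 1, 3 without no crush replicate 2 and 10 without day 1 replicate 2. C1qc, a complement gene of microglia, stood at 12.6, 8.98 and 8.55 CPM without crush and 88.7, 16.7 and 23.5 CPM on day 1, and its 4.28-fold rise (log2 2.10 ± 0.45, SE; adjusted p = 0.00662) became 1.96-fold without that library. The signalling adaptor gene Tyrobp stood at 7.47, 4.23 and 7.82 CPM without crush and 63, 12.1 and 15.5 CPM on day 1 (log2 2.21 ± 0.50, SE; adjusted p = 0.00848), with an adjusted p of 0.0648 without it.

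Gpnmb followed the same library, as given above. Mmp12, which macrophages can also express, did not: at 106, 94.1 and 91.4 CPM the 3 day 1 libraries were alike, and its rise was called without day 1 replicate 1. The part of microglial RNA in the rises of Gpnmb and Mmp12, and in the other rises, was not tested.

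Of 12 markers of Mueller glia and astrocytes 2 were higher (16.7%, beside 5.93% of all genes tested). Clu, the clusterin gene, which RGCs also express, stood at 109.6, 132 and 142 CPM without crush and 212, 224 and 228 CPM on day 1 and rose 1.73-fold (log2 0.79 ± 0.10, SE; adjusted p = 4.63e-05). Vim, the intermediate filament gene vimentin, stood at 4.65, 2.68 and 5.02 CPM without crush and 51.3, 13.7 and 13.1 CPM on day 1. Its rise of 6.31-fold (log2 2.66 ± 0.42, SE; adjusted p = 0.000562) was 3.20-fold without day 1 replicate 1. Of 12 rod markers 1 was higher (8.33%, near the 5.93% of all genes tested). It was the arrestin gene Sag, at 43.6, 15.9 and 12.5 CPM without crush and 57.4, 52.3 and 82.7 CPM on day 1 (log2 1.43 ± 0.37, SE; adjusted p = 0.0185). Without no crush replicate 1, the library with the most rod RNA in its group, 10 of 12 were higher, and Sag rose 4.41-fold. The call of Sag was lost without no crush replicate 2 (adjusted p = 0.0754) or day 1 replicate 3 (adjusted p = 0.0785). Of 9 bipolar cell markers 0 were higher and 2 lower (22.2%, beside 5.45% of all genes), Isl1, which RGCs also express, and Prkca, at 149, 154 and 126 CPM without crush and 114, 113 and 114 CPM on day 1 (log2 -0.33 ± 0.09, SE; adjusted p = 0.028). The summed level of the 9 markers was 254, 263 and 235 without crush and 195, 193 and 198 on day 1 CPM. The lower count was 1 without no crush replicate 2 or any 1 of the day 1 libraries, and without no crush replicate 1, 2 were higher and 2 lower. The part of bipolar cell RNA in the falls was not tested. None of the 8 cone, 8 amacrine and horizontal, 4 vascular or 3 oligodendrocyte markers was called with all libraries. Without no crush replicate 3, 1 cone marker was higher and 1 amacrine and horizontal marker lower, and without no crush replicate 1, 2 of the latter were higher.

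Genes that rose and genes that fell differed in their starting level and span. The median level without crush was 17.1 CPM for higher genes and 161 CPM for lower genes, beside 19.2 CPM for all. CPM is not scaled to length, so this is a difference in the counts behind the test. Of the higher genes 27.6% were under 5 CPM without crush, and of the lower genes 0.401%. The median genomic span was 25.1 kb for higher genes, 38.1 kb for lower genes and 24.9 kb for all. No test was made on these properties.

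Open chromatin at the promoters of these genes was measured in the same study by ATAC-seq, in which a transposase cuts accessible DNA. The 3 no crush and 3 day 1 libraries used share 1 batch number given by the authors. The share of reads in peaks was 39.2% to 49.6% in the no crush libraries and 15.7% to 18.6% on day 1, so this measure of library quality moved with the day. Of 39399 promoter peaks 15981 were called (40.6%), of which 3416 were higher (8.67%) and 12565 lower (31.9%), by edgeR at an adjusted p under 0.05. Promoter peaks of genes whose RNA rose were higher in 6.59% and lower in 37.9%, and those of genes whose RNA fell were higher in 7.56% and lower in 34.4%. For genes whose RNA was not called the shares were 6.46% and 40%, so the peaks of called genes were near the background in both directions. When all ATAC libraries were fitted with batch as a term, 3714 promoter peaks were called in place of 15981.

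Of the 12 largest rises, 11 had a promoter peak, with 1 peak taken per gene. Of these peaks 3 were lower and 1 was higher, near the 31.9% and 8.67% of all promoter peaks. The higher one was that of Dusp16. That peak, which the authors annotate as a promoter, at chr6:134760417-134762455 (mm10), stood at 2.91, 2.67 and 4.13 CPM without crush and 5.70, 5.62 and 8.69 CPM on day 1 (log2 1.05 ± 0.20, SE; adjusted p = 0.00129). The Dusp16 promoter searched for motifs lay elsewhere, at chr6:134792579-134792878, so this peak does not cover it. For some other genes, such as Atf3, the peak taken also lay away from the promoter searched. The 3 lower peaks were those of Bcl2l11, Mmp12 and Ticam1. With batch as a term over all ATAC libraries 0 of these 4 peaks were called, and for Dusp16 the change was 0.65 on the log2 scale (adjusted p = 0.202). Timp3, chosen after its values were seen, had a promoter peak with a change of 1.38 ± 0.18 (SE; adjusted p = 8.84e-05), and 0.71 with the batch term (adjusted p = 0.287).

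The authors' deposited table of this RNA comparison calls fewer genes. At a false discovery rate under 0.05 the authors' deposited table lists 722 genes (5.26%), 425 higher (3.09%) and 297 lower genes (2.16%), of which 416 (3.03%) and 294 (2.14%) were also called here in the same direction. In the authors' deposited table Dusp16 has a log2 fold change of 4.10, Hrk of 4.26, Atf3 of 3.79 and Tuba1b of -0.95. Of the RGC markers, the authors' deposited table gives Pou4f1 a false discovery rate of 0.0645 and Rbpms one of 0.00603.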

How the data were processed

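RNA was taken from sorted RGCs with a low-input full-length cDNA kit (SMART-Seq v4), per the labels' protocols, which does not mark strand, so overlapping antisense genes cannot be told apart. Per the submitters' processing notes, STAR, Picard, HTSeq and edgeR were used with the build mm10 (no versions stated). The authors deposited raw counts per gene, log2 normalized values, and a table of log2 fold changes with adjusted p-values (FDR). For ATAC-seq the authors deposited counts per peak, a peak annotation, a batch number and the fraction of reads in peaks.

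Counts of all 13 RNA libraries were tested in 1 model with day as the term, by edgeR 4.0.16 (quasi-likelihood F test, TMM scaling, filterByExpr) in R 4.3.3, and the contrast of day 1 with day 0 was adjusted by Benjamini-Hochberg over 13737 genes at 0.05. CPM are TMM-scaled, SE was derived from the log2 fold change and its F statistic, and the scripts were tested on simulated data. ATAC counts of the batch shared by days 0 and 1 were tested the same way (3 against 3). Same-numbered ATAC libraries of the groups deviated together (r = 0.119, 0.118 and 0.223), so a fit with the number as a block was compared. The labels' titles were used for the ATAC groups where another field disagreed.

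Alternatives used DESeq2 1.42.0, limma 3.58.1, other filters, the authors' sequencing components and each library left out. Genes were named by a rule: the 12 largest rises and falls among called genes with a mean of at least 5 CPM, no overlap between groups and a call without no crush replicate 3, up to 4 called members of each of 38 lists with the smallest adjusted p, and defining cell type markers. The genes Trib3, Chac1, Atf4, Psph, Slc7a5, Eif2ak3, Eif2ak1, Asns, Marcks, Itga5, Mapk8, Mapk10, Mapk8ip3, Kcnab1, Chrna3, Htr1b, Fos, Gap43, Map3k12, Epha7 and Sema3c are list members named after their values were seen. Some genes that the rule names are not reported here. The members and lists were chosen with earlier results of these data known. Of 15 RNA samples in the labels 13 had counts here, and the other two were not analysed here. Genes of close families (tubulin, MHC class I, ribosomal protein and heat shock genes) are uncertain where reads could be split between copies.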

Additional observations from a re-analysis of the deposited data

How the results depend on the processing

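The number of genes called, 1563, was 366 with a fold of at least 2 required, 815 with only the libraries of days 0 and 1 fitted, 1006 with limma on the authors' normalized values, and 792 with days 0 and 1 only and no crush replicate 3 left out, an alternative chosen after seeing the data. Leaving out 1 library at a time gave 1024 (without day 1 replicate 1) to 1563 genes. It lay between 1097 and 2218 with DESeq2, other filters or the sequencing components. Replicate numbers did not pair the RNA libraries (correlations of deviations 0.0057, 0.0042 and -0.126), and the replicate block gave 1534 genes. The ATAC count of 15981 promoter peaks was 3714 with batch as a term, 17638 with the replicate block, which changed no call of the 5 peaks named, and 13397 to 15865 with 1 library left out. The cause of these differences was not tested.

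Of the 12 largest rises 10, and of the 12 largest falls 8, were called under every alternative except the rule of 2-fold, which was not counted. Of the 146 genes named by rule, 128 were called, and 83 of these under every alternative. Of 24 list members picked after their values were seen 21 were called, and 15 of these lost the call under some alternative, among them Chac1, Atf4, Eif2ak1, Asns, Itga5, Mapk8, Htr1b, Mapk10, Mapk8ip3, Kcnab1, Epha7 and Sema3c. None of these called genes reversed its direction, and other called genes were not checked for this. Genes near 0 that were not called changed sign. The log2 change of Aldoa was 0.0154 with the sequencing components. That of Eno2 was -0.0334 with DESeq2's size factors and with its Wald test, -0.0195 with a mean count of at least 20, -0.0299 with limma, -0.0094 with the sequencing components and -0.1453 to 0.0536 with 1 library left out. That of Gap43 was -0.0229, -0.0231, -0.0096, -0.0302 and -0.0125 under the same settings in that order, and -0.0711 to 0.0907 with 1 library left out. With the sequencing components Fos was at 0.0982, Opn1sw at 0.2039 and Sncg at 0.1318, and Sncg was at 0.0016 with days 0 and 1 only. With days 0 and 1 only and no crush replicate 3 left out, Fos was at 0.2278, Mbp at -0.0099, Psmd1 at 0.0384 and Sncg at 0.0482. Ranges with 1 library left out were -0.4046 to 0.2049 for Fos, -0.0327 to 0.1801 for Mbp, -0.5982 to 0.182 for Opn1sw, -0.2603 to 0.0164 for Psmd1 and -0.1506 to 0.0538 for Sncg. At this depth 11 genes tested had no counts without crush.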

Other observations

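Axon guidance genes fell more often than they rose. Of 41 tested 8 were lower (19.5%, beside 5.45% of all genes tested) and 1 was higher (2.44%, beside 5.93%). The median was -0.10 on the log2 scale beside 0.01 over all genes, and the lower count was 5 without day 1 replicate 2 or 3. Epha5, an ephrin receptor gene, had a log2 change of -0.56 ± 0.09 (SE; edgeR adjusted p = 0.000716) and Epha7, another, of -0.59 ± 0.18 (adjusted p = 0.0394, and 0.0732 to 0.131 without no crush replicate 1 or any of the day 1 replicates). Sema7a, a semaphorin gene, was at 0.536 of the no crush level (adjusted p = 0.001), while Sema3c rose 2.31-fold (adjusted p = 0.0272) and lost its call at adjusted p values of 0.0799 to 0.116 when replicate 2 or 3 of no crush, or replicate 1 or 2 of day 1, was left out.

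Ribosomal protein genes tended upward by small amounts. Of 77 tested 11 were higher (14.3%, beside 5.93% of all genes tested) and 0 lower, with a median of 0.21. The higher count was 6 without no crush replicate 3, 2 without no crush replicate 2 or day 1 replicate 3 and 3 without day 1 replicate 1. Of 37 proteasome genes 0 were called with all libraries, and 3 were higher without no crush replicate 3. Of 18 neurotrophic and growth factor receptor genes 1 was higher and 1 lower (5.56% each, near the 5.93% and 5.45% of all genes). Fgfr1, a fibroblast growth factor receptor gene, rose 1.53-fold (adjusted p = 0.00267), and Igf1r, the receptor gene of insulin-like growth factor 1, had a log2 change of -0.29 ± 0.08 (adjusted p = 0.0354), with an adjusted p of 0.0507 to 0.0999 without no crush replicate 1 or 2 or day 1 replicate 1 or 3.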
